A study of Leucoraja erinaceus with 6 samples.

Results

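Microtubules are hollow polymers of tubulin, a protein made of 1 alpha and 1 beta chain, and they form the tracks along which a neuron moves cargo between its cell body and its axon. Vertebrates carry several genes for each chain, the isotypes, which are very similar in sequence and are used in different mixtures by different cells. Growing axons are rich in tubulin, and a mixture of isotypes is a known feature of developing neurons. The isotypes were examined here in spinal cord cells of the little skate, Leucoraja erinaceus, a cartilaginous fish with large paired fins.

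The members were every row of the deposited expression table whose description begins with "tubulin, alpha" or "tubulin, beta". There were 8 such rows among 7080, of which 6 were alpha and 2 were beta. The limit of 10 rows by mean level was not reached, so no row was left out on its level. The rows described as tubulin, alpha 2 and tubulin, alpha 8 like 2 were named in advance, with earlier results of these data known. The names are those that the table pairs with a contig, a transcript put together from reads without a genome, and not verified skate orthologs.

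Pectoral fin motor neurons gave 3 libraries, numbered 1, 2 and 3, and cells of the tail spinal cord gave another 3, numbered 1, 2 and 4. All came from spinal cord of wild type skates at stages 30 to 31, and the cells were picked by hand. The groups differ in cell class and in position along the body, which cannot be told apart here. The series was made to find genes that mark the neurons of the pectoral fin. The labels do not say whether libraries came from separate animals, and the p-values therefore cover only the variation among these libraries, which may be technical.

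Levels are TPM (a transcript abundance that corrects for contig length and for the total of the library), so levels of different rows can be compared. TPM do not keep the number of reads, and depth is therefore unknown. The deposited rows summed to 48449 to 74224 TPM per library, and the number of rows listed at 0 ran from 5 in pectoral replicate 1 to 3552 in tail replicate 4. The deposited rows thus hold only a small part of each library's total TPM. Shares and ranks given here refer to that part and not to all RNA. Because the libraries are pools of cells, fewer cells of a type and less RNA per cell cannot be told apart. Differences were tested with limma on log2(TPM + 1) over the 3752 rows that reached 1 TPM in 3 or more of the 6 libraries. Of the 8 tubulin rows 7 were tested, and tubulin, alpha 8 like was too low.

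Alpha tubulin was among the most abundant RNA of the table, and most of its excess in pectoral fin motor neurons lay in 2 rows. Tubulin, alpha 2 averaged 280.5 ± 55.8 TPM in fin motor neurons, against 67.6 ± 67.9 TPM in tail cells, and tubulin, alpha 8 like 2 averaged 176 ± 34.2 TPM in fin motor neurons, against 32.1 ± 21.4 TPM in tail cells (SD, n = 3 each). Another row, tubulin, alpha 8 like 4, had the same order of groups with a smaller log2 fold change over all libraries. Without tail replicate 4 the log2 fold change was 1.63 for alpha 8 like 4 and 1.69 for alpha 2. Tubulin, alpha 1a and both beta rows overlapped between the groups. None of the 7 tested rows passed an adjusted p of 0.05 by limma, where 0.0533% of all tested rows passed higher in pectoral and 0.0267% higher in tail libraries. Of the 7, 3 had an unadjusted p under 0.05. When noisier libraries counted less (array weights), alpha 2 and alpha 8 like 2 passed (adjusted p = 0.029 and 0.025), and with quantile scaling alpha 8 like 2 passed (adjusted p = 0.047). With array weights, pectoral replicate 1 and tail replicate 2 counted most. Neither row passed in any other alternative, where the limma adjusted p reached 0.70. Over all tested rows 26 passed with array weights (0.693%) and 3 with quantile scaling (0.08%), against 3 without either.

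Tubulin, alpha 2 (contig TRINITY_DN17797_c2_g3_i4) had 238, 260.2 and 344 TPM in fin motor neuron replicates 1, 2 and 3, against 142, 51.01 and 9.52 TPM in tail cell replicates 1, 2 and 4. The pectoral libraries were close to each other and all lay above the tail libraries, which spread widely, with tail replicate 1 nearest to the pectoral range and tail replicate 4 far below. The lowest pectoral value was 1.67 times the highest tail value. The log2 fold change, pectoral minus tail, was 2.70 (SE 0.72, 95% interval 1.23 to 4.17), with an unadjusted p of 0.000736 and a limma adjusted p of 0.29 over all tested rows. The size of the change depended on tail replicates 1 and 4. Leaving out tail replicate 1 gave 3.57, and leaving out tail replicate 4 gave 1.69.

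Tubulin, alpha 8 like 2 (TRINITY_DN18712_c7_g9_i1) had 139, 182 and 207 TPM in fin motor neuron replicates 1, 2 and 3, against 56.4, 23.8 and 16.1 TPM in tail cell replicates 1, 2 and 4. Here the gap between the groups was wider, with the lowest pectoral value 2.47 times the highest tail value. Its log2 fold change was 2.59 (SE 0.68, 95% interval 1.20 to 3.99), with an unadjusted p of 0.000645 and a limma adjusted p of 0.29. By unadjusted p the row ranked 8 among the 3752 tested rows and tubulin, alpha 2 ranked 9. In fits without 1 library its log2 fold change lay between 2.21 and 3.08.

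Tubulin, alpha 8 like 4 (TRINITY_DN17797_c2_g2_i2) stood at 123, 67.7 and 102 TPM in fin motor neurons, against 37.7, 23.7 and 43.5 TPM in tail cells. The groups did not overlap, but the lowest pectoral library was only 1.56 times the highest tail library, where alpha 2 had 1.67 times. The log2 fold change of alpha 8 like 4 was 1.45 (SE 0.69, 95% interval 0.040 to 2.87, limma adjusted p = 0.67). The row shares its Trinity gene, the assembler's group of contigs taken to come from 1 gene, with the row described as tubulin, alpha 7 like. That row (TRINITY_DN17797_c2_g2_i6) stood at 1.84, 1.95 and 2.58 TPM in fin motor neurons, against 2.07, 0.883 and 17.6 TPM in tail cells. Apart from tail replicate 4, the alpha 7 like contig was a minor one in every library. Added together, both contigs came to 124, 69.6 and 105 TPM in fin motor neurons, against 39.8, 24.6 and 61.1 TPM in tail cells. The highest tail sum was thus still below the lowest pectoral sum. How reads were shared between such similar contigs was not tested.

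Tubulin, alpha 1a (TRINITY_DN18712_c7_g2_i1), named for an isotype that mammals make in abundance in young neurons, varied least. It stood at 104, 92.3 and 87.1 TPM in fin motor neurons, against 84.1, 40.3 and 96.0 TPM in tail cells, so that the groups overlapped. Its log2 fold change was 0.45 (SE 0.66, 95% interval -0.89 to 1.78, limma adjusted p = 0.91). It was 0.07 without tail replicate 2 and 0.91 with array weights. Among the 7 rows above 0 in every library it had the narrowest range, with the highest library 2.58 times the lowest, against 36.1 times for tubulin, alpha 2. Its low point was tail replicate 2, not tail replicate 4. The remaining alpha row, tubulin, alpha 8 like (TRINITY_DN18712_c5_g1_i1), was listed at 4.53, 0 and 0 TPM in fin motor neurons, against 0, 7.98 and 0 TPM in tail cells.

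**Figure D1:**
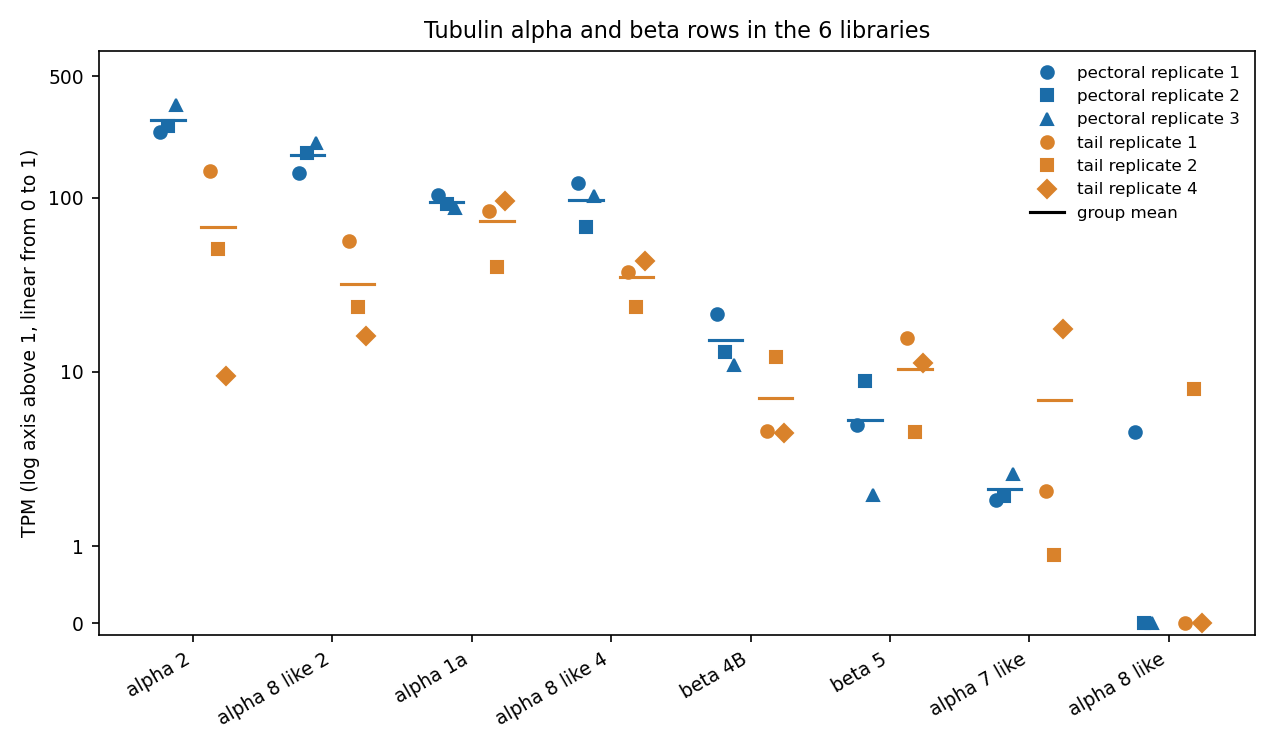
Level of each of the 8 tubulin rows in TPM (log axis above 1, linear from 0 to 1) in pectoral fin motor neuron (blue, left) and tail spinal cord (orange, right) libraries; shapes mark replicates and lines mark group means, which are left out for alpha 8 like because it is listed at 0 in 4 libraries. In alpha 2, alpha 8 like 2 and alpha 8 like 4 every blue point lies above every orange one, and in the other 5 rows the groups overlap.

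The beta chain was represented by 2 low rows. Tubulin, beta 4B class IVb (TRINITY_DN18290_c1_g2_i1), named for an isotype that mammals also use in cilia, stood at 21.6, 13.05 and 10.9 TPM in fin motor neurons, against 4.59, 12.2 and 4.44 TPM in tail cells. Only tail replicate 2 reached the pectoral range. The log2 fold change was 1.08 (SE 0.90, 95% interval -0.76 to 2.92, limma adjusted p = 0.87). Tubulin, beta 5 (TRINITY_DN17327_c0_g1_i3), whose mammalian namesake is made in most cell types, stood at 4.99, 8.88 and 1.98 TPM in fin motor neurons, against 15.6, 4.51 and 11.3 TPM in tail cells. Its log2 fold change had the opposite sign, at -0.89 (SE 0.96, 95% interval -2.84 to 1.05, limma adjusted p = 0.89), and the groups overlapped. In fits without 1 library its log2 fold change lay between -1.35 without tail replicate 2 and -0.43 without pectoral replicate 3. With the replicate block it was -0.31. No described row named beta 3, the isotype used in other vertebrates as a marker of neurons, and it was not analysed here.

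**Figure D2:**
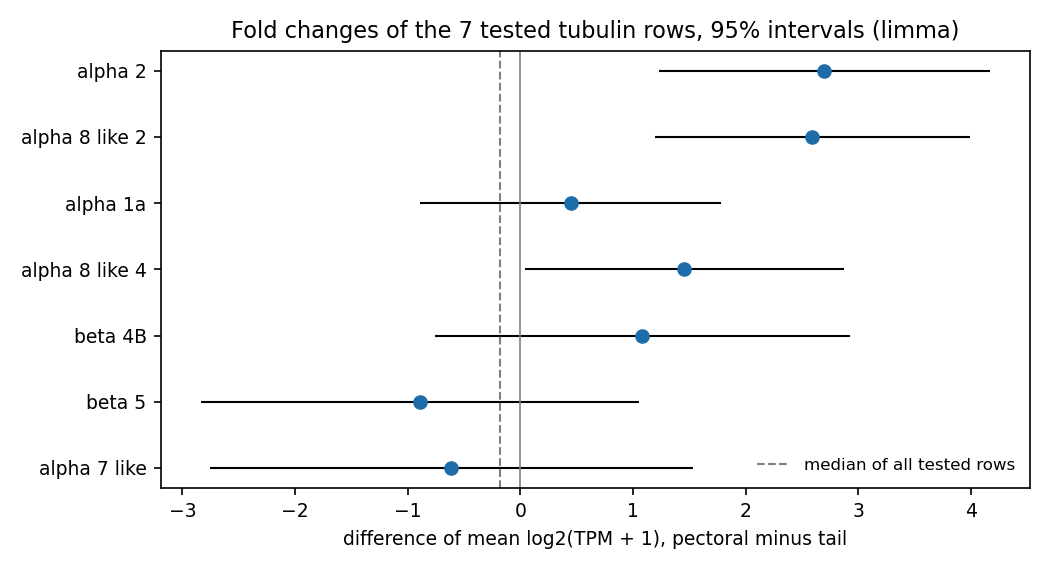
Difference of mean log2(TPM + 1), pectoral minus tail, with 95% intervals from limma for the 7 tested tubulin rows; the dashed line is the median of all tested rows. The intervals of alpha 2, alpha 8 like 2 and alpha 8 like 4 lie above 0, the last by a small margin, and the other 4 cross it; none of the 7 passed after adjustment over all rows.

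Each of these rows was also compared between groups on the TPM scale with a two-sided exact permutation test, 8 tests in all. With 3 libraries against 3 the smallest p is 0.1, so no row could pass 0.05. The exact permutation p was 0.1 for tubulin, alpha 2, alpha 8 like 2 and alpha 8 like 4. It was 0.2 for beta 4B, 0.3 for beta 5, 0.4 for alpha 1a, 0.8 for alpha 7 like and 1 for alpha 8 like. In the authors' deposited table the unadjusted p-values were 0.00346 for alpha 8 like 2, 0.0138 for alpha 2 and 0.0214 for alpha 8 like 4, and after adjustment here 0 rows of the authors' deposited table passed.

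Counted together, 3 of the 7 tested tubulin rows had all pectoral libraries above all tail libraries, and 0 had the reverse. Over all tested rows, 4.18% had the pectoral libraries on top and 7.6% the tail libraries. Among the 457 tested rows with a mean of at least 10 TPM, 3.94% had the pectoral libraries on top. The same 3 tubulin rows had an unadjusted limma p under 0.05 with a higher pectoral level, where 3.09% of tested rows did. The 7 tested tubulin rows had a median log2 fold change of 1.08, against -0.18 for all tested rows. These counts describe rows that were chosen with results known and that resemble each other in sequence, so they are not independent of each other.

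Summed over the 8 rows, tubulin came to 637, 626 and 756 TPM in pectoral replicates 1, 2 and 3, and to 343, 164 and 198 TPM in tail replicates 1, 2 and 4. As a share of the deposited rows this was 1.27%, 1.14% and 1.20% in pectoral libraries, against 0.462%, 0.284% and 0.410% in tail libraries. The lowest pectoral share lay well above the highest tail share. Nearly all of the difference lay in the alpha rows, whose sum averaged 652 ± 78.4 TPM in fin motor neurons, against 218 ± 92.6 TPM in tail cells (SD, n = 3 each). The sum of the beta rows averaged 20.5 ± 6.97 TPM in fin motor neurons, against 17.5 ± 2.34 TPM in tail cells, a difference smaller than the spread between pectoral libraries. The chains pair in equal number in the protein, but the described rows need not hold every alpha and beta transcript of the skate, and the sums are not the whole pool of either chain.

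**Figure D3:**
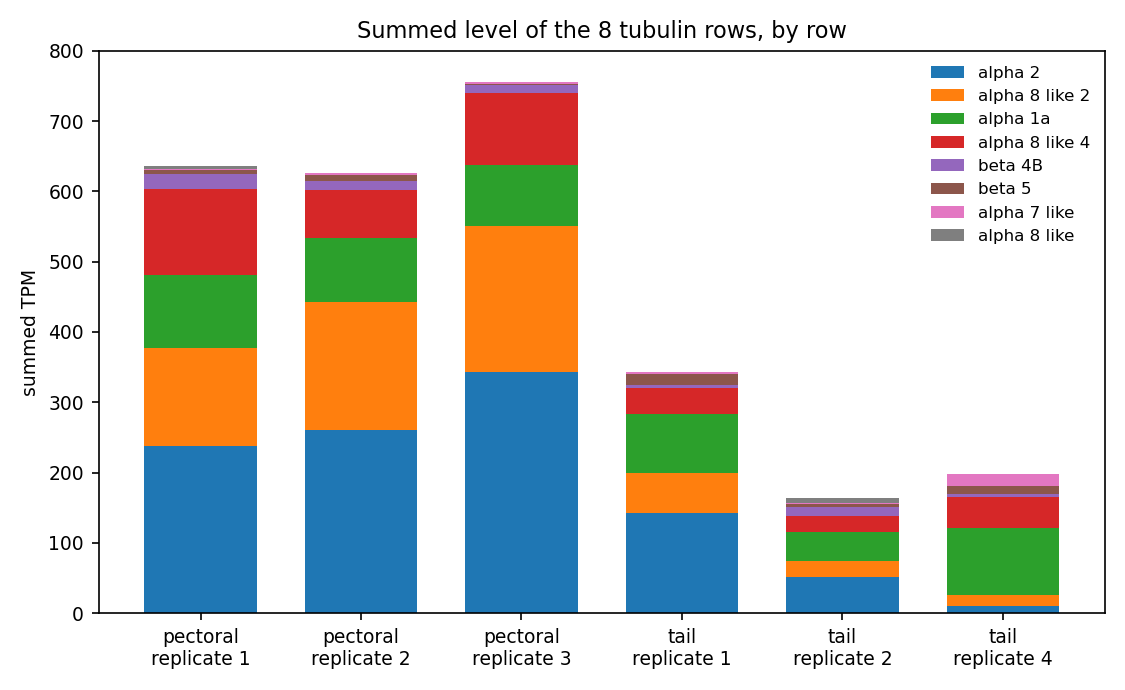
Summed TPM of the 8 tubulin rows in each library, with 1 colour for each row. The pectoral columns reach 626 to 756 TPM and the tail columns 164 to 343 TPM, and the blue and orange blocks (alpha 2 and alpha 8 like 2) shrink more than the green one (alpha 1a) in the tail libraries.

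The order of the isotypes differed between libraries. In all 3 pectoral libraries tubulin, alpha 2 came first and alpha 8 like 2 second. Below them alpha 8 like 4, at 97.5 ± 27.7 TPM, and alpha 1a, at 94.5 ± 8.75 TPM, changed places between pectoral libraries and did not differ beyond their spread. Then came beta 4B at 15.2 ± 5.67 TPM in every pectoral library, above beta 5 at 5.28 ± 3.46 TPM and alpha 7 like at 2.12 ± 0.402 TPM, which changed places in pectoral replicate 3. In the tail group alpha 1a, at 73.5 ± 29.3 TPM, and alpha 2 did not differ beyond their spread, nor did alpha 8 like 4, at 35.0 ± 10.2 TPM, and alpha 8 like 2. Beta 5 at 10.5 ± 5.59 TPM, beta 4B at 7.07 ± 4.43 TPM and alpha 7 like at 6.86 ± 9.34 TPM also overlapped in tail libraries. Tail replicates 1 and 2 had alpha 2 first and alpha 1a second. Tail replicate 4 had alpha 1a first and alpha 2 only sixth.

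Ratios within a library do not depend on how libraries are scaled to each other. Tubulin, alpha 8 like 2 was 1.34, 1.97 and 2.38 times alpha 1a in pectoral replicates 1, 2 and 3, and 0.670, 0.589 and 0.168 times alpha 1a in tail replicates 1, 2 and 4. It thus lay above alpha 1a in every pectoral library and below it in every tail library. Tubulin, alpha 2 was 2.28, 2.82 and 3.94 times alpha 1a in pectoral libraries, against 1.69, 1.26 and 0.0992 times in tail libraries. Both ratios separated the groups, with a log2 difference of 2.19 for alpha 8 like 2 and 2.30 for alpha 2 (exact permutation p = 0.1 each, the smallest possible). The difference for alpha 2 rested on tail replicate 4 and was 1.01 without it, and that for alpha 8 like 2 was 1.55 without it. For alpha 8 like 4 over alpha 1a the log2 difference was 1.03, and these groups did not overlap either (exact permutation p = 0.1). The ratio of alpha 2 to alpha 8 like 2 was 1.70, 1.43 and 1.66 in pectoral and 2.53, 2.15 and 0.590 in tail libraries, so the groups overlapped (exact permutation p = 1). Its log2 difference was 0.11, and -0.55 without tail replicate 4. These 4 ratios were chosen after the values were seen, and how often ratios of other rows separate the groups was not tested.

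As a share of the summed tubulin rows, alpha 8 like 2 made up 21.9%, 29.04% and 27.4% in pectoral libraries, against 16.4%, 14.5% and 8.14% in tail libraries. Alpha 1a made up 16.4%, 14.7% and 11.5% in pectoral libraries, against 24.5%, 24.5% and 48.4% in tail libraries. Beta 5 made up 0.784%, 1.42% and 0.261% in pectoral libraries, against 4.55%, 2.74% and 5.69% in tail libraries. Alpha 7 like made up 0.289%, 0.311% and 0.342% in pectoral libraries, against 0.604%, 0.537% and 8.88% in tail libraries. For these 4 rows the groups did not overlap in share, although in TPM those of alpha 1a, beta 5 and alpha 7 like did. Shares of a fixed total fall in some rows when they grow in others. In TPM, 11.8% of all tested rows separated the groups in either direction. How often shares separate the groups was not tested. The share of alpha 2 itself did overlap, at 37.3%, 41.6% and 45.5% in pectoral and 41.5%, 31.03% and 4.80% in tail libraries. Tail replicate 1, the tail library with the most tubulin in unscaled TPM, thus had a share of alpha 2 within the pectoral range.

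By rank among all 7080 rows, tubulin, alpha 2 was 12, 12 and 11 from the top in pectoral replicates 1, 2 and 3, and 19, 49 and 587 from the top in tail replicates 1, 2 and 4. Tubulin, alpha 8 like 2 ranked 17, 15 and 14 in pectoral libraries and 69, 150 and 358 in tail libraries. Tubulin, alpha 1a held a rank of 19, 26 and 29 in pectoral libraries and 38, 71 and 35 in tail libraries. With median-ratio scaling, which sets the libraries to a common middle level, tubulin, alpha 2 came to 240, 311 and 412 in pectoral and 72.4, 49.9 and 13.3 in tail libraries on the scaled TPM scale. Scaled alpha 8 like 2 came to 141, 217 and 248 in pectoral and 28.6, 23.2 and 22.5 in tail libraries. The tail libraries lay closer together for that row after scaling, while tubulin, alpha 2 stayed lowest in tail replicate 4. This scaling shifted the middle of all tested rows by 0.27 log2 units, to 0.09. Relative to that middle, the log2 fold change of alpha 2 was 2.97 scaled and 2.88 unscaled, and that of alpha 8 like 2 was 2.85 scaled and 2.77 unscaled.

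**Figure D4:**
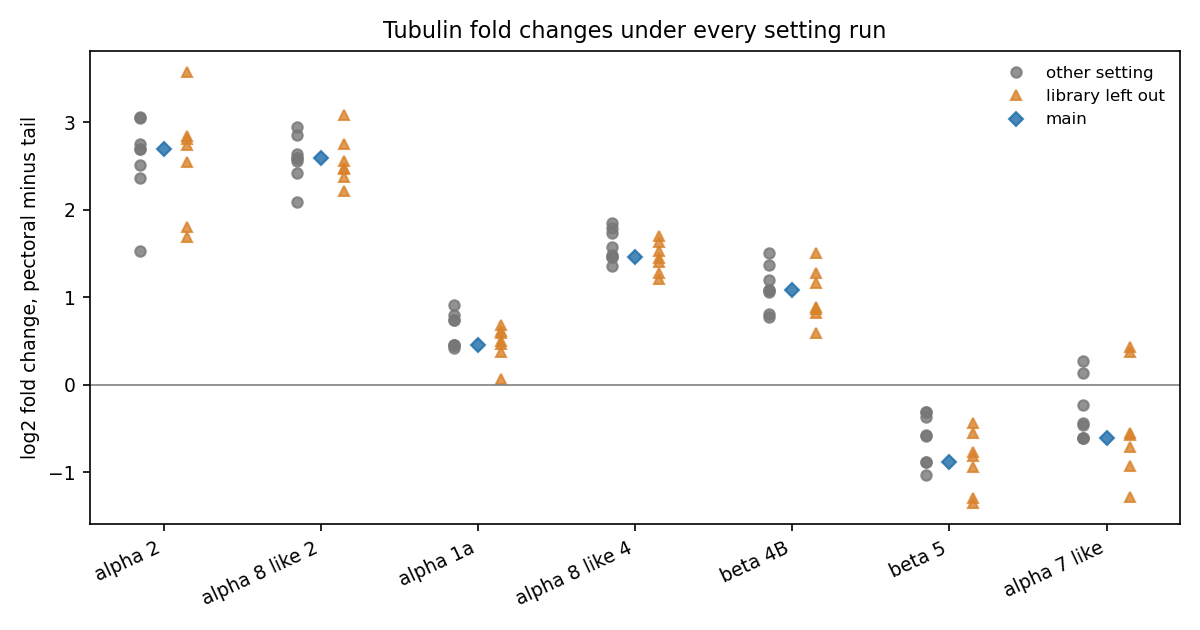
Log2 fold change of the 7 tested tubulin rows, pectoral minus tail, as reported (blue diamonds), in other settings that left out no library (gray circles) and in fits without 1 or 2 libraries (orange triangles). The gray circles include the replicate block, whose contrast rests on replicates 1 and 2 only. Alpha 2, alpha 8 like 2, alpha 1a, alpha 8 like 4 and beta 4B stay above 0 and beta 5 stays below 0 in all 15 alternatives, and alpha 7 like crosses 0.

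The assembly clusters of the tubulin rows also held undescribed contigs. Rows with no description are named by contig, and which protein they encode was not checked. The Trinity gene of alpha 8 like 4 held 1 more contig, TRINITY_DN17797_c2_g2_i7, at 5.42, 14.7 and 13.9 TPM in fin motor neurons, against 24.4, 8.03 and 5.08 TPM in tail cells. The Trinity gene of beta 5 held 2 more. TRINITY_DN17327_c0_g1_i8 stood at 5.06, 11.9 and 1.74 TPM in fin motor neurons, against 7.96, 0.392 and 0.603 TPM in tail cells, and TRINITY_DN17327_c0_g1_i7 at 0.503, 4.71 and 1.71 TPM in fin motor neurons, against 4.91, 1.48 and 0 TPM in tail cells. In all of these the groups overlapped. They also overlapped in the undescribed contigs of the beta 5 and alpha 2 clusters that lie outside these Trinity genes. TRINITY_DN17327_c0_g2_i1 and TRINITY_DN17797_c2_g6_i1 had log2 fold changes of -0.27 and -0.39, and TRINITY_DN17797_c2_g12_i1 was too low to test.

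Undescribed contigs of the cluster that holds alpha 8 like 2 and alpha 1a, named after their values were seen, had a higher level. TRINITY_DN18712_c7_g8_i2 stood at 145, 119 and 196 TPM in fin motor neurons, against 87.0, 56.2 and 34.1 TPM in tail cells, with a fold change of 1.43 on the log2 scale (SE 0.64, adjusted p = 0.64 by limma). TRINITY_DN18712_c7_g8_i1 stood at 50.7, 53.9 and 55.3 TPM in fin motor neurons, against 23.4, 25.05 and 9.95 TPM in tail cells, with a fold change of 1.51 on the log2 scale (SE 0.77, adjusted p = 0.74 by limma). In both rows the groups did not overlap, with the pectoral libraries on top. Among all tested rows 4.18% had that order, and 3.94% of those with a mean of at least 10 TPM. A shared cluster does not show that a contig is a tubulin, because the cluster of alpha 2 also holds rows described as ribosomal protein L4 and as a poly A binding protein.

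The proteins that fold, bind and move along microtubules were read from the same fit, from lists of description patterns chosen with earlier results known. In limma 0 rows of these lists passed the adjusted threshold in either direction. Together with 8 of the neuronal outgrowth list below, the lists held 23 tested rows. Of the 23, 1, prefoldin 5, had an unadjusted limma p under 0.05, where 7.04% of all tested rows did. Over all 3752 tested rows the median log2 fold change was -0.18, and 1632 of them were above 0. Of 10 rows matched by the folding patterns 8 were tested, with a median log2 fold change of 0.36 and 5 of 8 above 0. The chaperonin CCT, a ring in which tubulin and actin fold, gave most of them. CCT subunit 6A stood at 9.07, 13.5 and 13.6 TPM in fin motor neurons, against 21.6, 12.5 and 23.1 TPM in tail cells. CCT subunit 4 stood at 7.96, 10.9 and 28.5 TPM in fin motor neurons, against 19.2, 10.7 and 0.478 TPM in tail cells. The row t-complex 1, itself a CCT subunit, stood at 10.5, 3.13 and 7.54 TPM in fin motor neurons, against 11.03, 6.21 and 37.1 TPM in tail cells. In each of the 3 the groups overlapped.

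Prefoldin 5, part of a complex that hands new tubulin chains to the chaperonin, stood at 18.2, 21.2 and 29.1 TPM in fin motor neurons, against 198, 116 and 27.5 TPM in tail cells. Its log2 fold change was -1.90 (SE 0.78, limma adjusted p = 0.58), and tail replicate 4 lay within the pectoral range. Tubulin cofactor a, which binds free beta tubulin and was not caught by the patterns, stood at 3.35, 0.486 and 4.27 TPM in fin motor neurons, against 5.45, 11.5 and 0.298 TPM in tail cells. Its groups overlapped too. Tubulin, delta 1, of the basal body and the only described row of another tubulin class, was too low to test, at 2.08, 0 and 0 TPM in fin motor neurons, against 0.0412, 0.356 and 0 TPM in tail cells.

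Of 6 rows of microtubule-associated proteins 4 were tested, and their median log2 fold change was 0.50 with 4 of 4 above 0. Stathmin 1b, which binds free tubulin dimers, stood at 23.8, 21.1 and 30.6 TPM in fin motor neurons, against 37.0, 15.5 and 16.6 TPM in tail cells. Stathmin 2b, its neuronal relative, stood at 3.05, 1.71 and 2.60 TPM in fin motor neurons, against 2.55, 1.86 and 0.0311 TPM in tail cells. The row of microtubule-associated protein 1 light chain 3 alpha, known for its part in autophagy, stood at 2.55, 0.692 and 2.28 TPM in fin motor neurons, against 3.24, 0.507 and 0 TPM in tail cells. Katanin p80, of a microtubule-severing enzyme, stood at 2.31, 1.35 and 1.44 TPM in fin motor neurons, against 0.537, 0.945 and 1.45 TPM in tail cells. In all 4 rows the groups overlapped.

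Of 8 rows matched by the motor patterns 3 were tested, with a median log2 fold change of 0.62 and 2 of 3 above 0. Dynein light chain LC8-type 2a stood at 3.22, 4.66 and 10.01 TPM in fin motor neurons, against 2.74, 13.8 and 0 TPM in tail cells. Dynein light chain Tctex-type 3 stood at 0.652, 0.368 and 2.89 TPM in fin motor neurons, against 5.92, 11.99 and 1.997 TPM in tail cells. Kinesin family member 23, a motor of the dividing cell's midzone, stood at 1.54, 1.48 and 0.793 TPM in fin motor neurons, against 2.09, 0 and 0 TPM in tail cells. None of the 3 separated the groups.

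Of 11 rows matched by the patterns of neuronal outgrowth 8 were tested, with a median log2 fold change of -0.07 and 4 of 8 above 0. GAP43, a growth cone protein, stood at 17.1, 22.9 and 43.7 TPM in fin motor neurons, against 42.9, 7.47 and 4.61 TPM in tail cells. The groups overlapped, with tail replicate 1 close to the highest pectoral library. The collapsin response proteins also overlapped. Dihydropyrimidinase-like 5b stood at 1.14, 6.04 and 14.04 TPM in fin motor neurons, against 6.21, 11.4 and 34.1 TPM in tail cells. Dihydropyrimidinase-like 3 stood at 1.68, 2.16 and 52.5 TPM in fin motor neurons, against 7.23, 7.91 and 1.30 TPM in tail cells, and dihydropyrimidinase-like 5a at 0.486, 3.92 and 14.3 TPM in fin motor neurons, against 7.17, 2.70 and 0.673 TPM in tail cells. Of the 8, 1 row, synuclein gamma a, separated the groups, at 2.89, 1.22 and 4.10 TPM in fin motor neurons, against 0.641, 0 and 0.228 TPM in tail cells (limma adjusted p = 0.76). Over all tested rows 11.8% separated the groups in either direction. Synuclein gamma a passed the filter on low values through its pectoral libraries alone, and it was singled out after its values were seen. Some rows that the pattern caught are RNA-binding proteins named for synaptotagmin and not synaptotagmins.

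**Figure D5:**
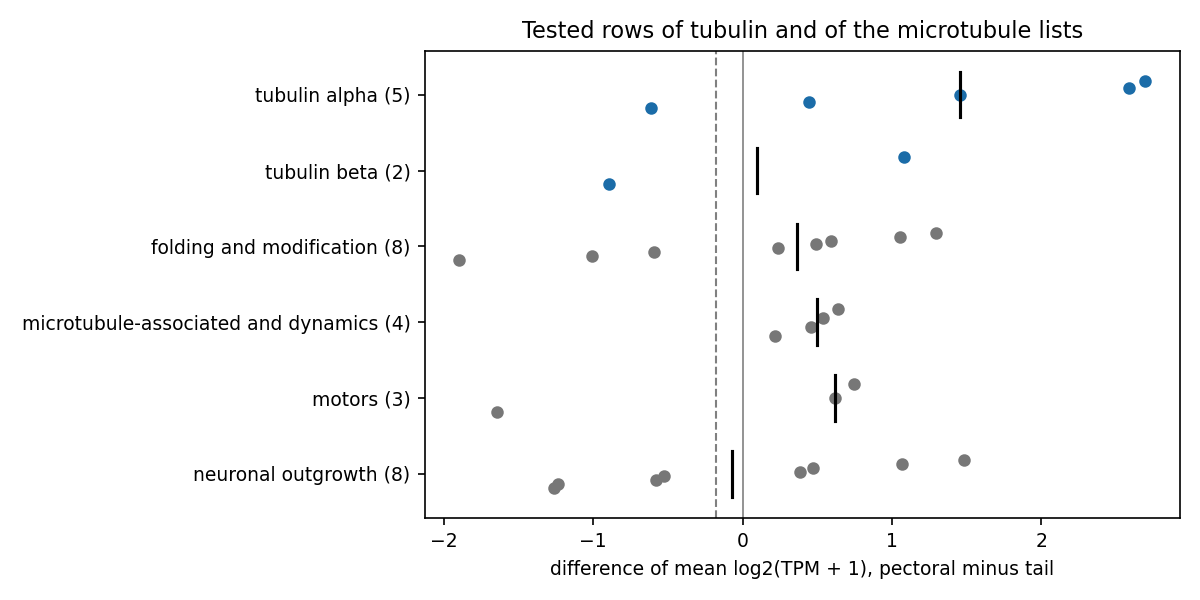
Difference of mean log2(TPM + 1), pectoral minus tail, for each tested row of alpha and beta tubulin (blue) and of the 4 microtubule and neuronal lists with tested rows (gray); bars mark list medians, the dashed line the median of all tested rows, and the number of tested rows is in brackets. The rows of alpha 2 and alpha 8 like 2, at 2.70 and 2.59, lie furthest to the right of the rows shown.

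The described rows whose pattern over the 6 libraries was most like that of each leading isotype were taken from 929 tested described rows by Pearson's r of log2(TPM + 1). These are descriptions over 6 libraries that share their scaling, with no test. For tubulin, alpha 2 they were reticulon 1a (r = 0.97), homeobox B6a (r = 0.95) and a 14-3-3 protein described as tyrosine 3-monooxygenase/tryptophan 5-monooxygenase activation protein (r = 0.94). Reticulon 1a stood at 13.6, 46.7 and 41.3 TPM in fin motor neurons, against 14.4, 4.14 and 0.126 TPM in tail cells. For tubulin, alpha 8 like 2 they were antioxidant 1 copper chaperone (r = 0.98), serine/threonine-protein kinase MRCK alpha (r = 0.97) and frizzled class receptor 7a (r = 0.96). Antioxidant 1 copper chaperone stood at 4.87, 5.76 and 4.15 TPM in fin motor neurons, against 1.20, 0.105 and 0.0132 TPM in tail cells. Frizzled class receptor 7a stood at 3.94, 12.3 and 7.78 TPM in fin motor neurons, against 0.732, 0 and 0 TPM in tail cells. That row passed the filter on low values through its pectoral libraries alone. Tubulin, alpha 2 and alpha 8 like 2 themselves were alike with r = 0.94 over the 6 libraries.

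Markers of cell types were summed in the same libraries. The 4 motor neuron genes ISL1, ISL2, CHAT and SLC18A3 all had a row, and their sum was 11.6, 7.99 and 8.75 TPM in fin motor neuron replicates 1, 2 and 3, against 5.96, 2.91 and 3.29 TPM in tail cell replicates 1, 2 and 4. The groups of this sum did not overlap, but those of CHAT and SLC18A3, which are part of it, did. Within the pectoral group the sum was highest in replicate 1. There alpha 8 like 4 was also highest, and alpha 2 and alpha 8 like 2 were lowest. Within the tail group the sum was highest in replicate 1, as were alpha 2 and alpha 8 like 2. Alpha 8 like 4 was highest in tail replicate 4. Of the 4 genes ISL1 and ISL2 separated the groups with pectoral libraries on top. Of all tested rows, which include ISL1 but not ISL2, 4.18% had that order. ISL1 passed the filter on low values through its pectoral libraries alone, and ISL2 was too low to test. CHAT averaged 2.11 ± 1.91 TPM in fin motor neurons, against 2.06 ± 1.33 TPM in tail cells (SD, n = 3 each), and SLC18A3 overlapped as well. ISL1 was listed at 0 in tail replicate 4, ISL2 in tail replicates 2 and 4, and CHAT in pectoral replicate 3. Of 5 neuronal genes 2 had a row (GAP43 and STMN2), with sums of 20.2 to 46.3 TPM in fin motor neurons, against 4.65 to 45.5 TPM in tail cells.

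The 4 progenitor genes SOX2, PAX6, FABP7 and SOX9 summed to 16.02 to 42.4 TPM in fin motor neurons, against 22.4 to 32.5 TPM in tail cells. Their members had opposite signs, with a log2 fold change of 1.23 for FABP7, the most abundant of them, and of -1.41 for SOX2, -0.64 for PAX6 and -1.68 for SOX9. All 4 overlapped between the groups. Of 10 genes of dividing cells 3 had a row (PCNA, MCM7 and CCND1), with sums of 1.62 to 12.1 TPM in fin motor neurons, against 11.9 to 40.9 TPM in tail cells. In tail libraries nearly all of that sum was CCND1, which averaged 5.42 TPM in fin motor neurons, against 29.8 TPM in tail cells (limma adjusted p = 0.54). Every tail library was on top, an order that 7.6% of all tested rows had. MCM7 had the opposite order, which 4.18% of all tested rows had. It stood at 1.32, 1.62 and 1.07 TPM in fin motor neurons, against 0 TPM listed for every tail library (limma adjusted p = 0.57). MCM7 passed the filter on these low values through its pectoral libraries alone. PCNA overlapped and was too low to test. The part of these cell types in the tubulin levels was not tested. No described row matched the listed markers of red blood cells, muscle, myelinating glia or connective tissue, which were not analysed here.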

How the data were processed

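The authors deposited 1 table of TPM with a column for each of the 6 libraries and an unadjusted p-value for each row, per the file headers. Total RNA was extracted with a PicoPure kit and made into stranded TruSeq mRNA libraries, per the labels' protocols. Salmon 0.8.2, Trimmomatic 0.33 and edgeR 3.18.1 are listed, with no role, per the submitters' processing notes. For the genome build and the assembly's source, the sources used here name nothing. The authors' deposited p-values lay within 1e-04 of p-values recomputed from the TPM with equal variances, in all 7080 rows. Of 7081 rows 1 exact repeat was removed. None of the 8 tubulin accessions matched the skate RefSeq gene table (0 matches), and no sequence or coordinate is given.

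The members, lists and alternatives were chosen with earlier results of these data known. The test was limma 3.58.1 in R 4.3.3 on log2(TPM + 1), two-sided, with trended empirical Bayes variances and Benjamini-Hochberg adjustment over all 3752 tested rows. The pseudocount makes fold changes of low rows smaller. For each leading isotype, 3 rows of like pattern were named. Each list names up to 4 tested rows of highest mean and any that passed, and other rows are marked where named. Exact permutation tests used SciPy 1.17.1. The script was tested on simulated data with independent noise and changes larger than any tubulin change reported here. That test does not show how it performs on changes of the reported size. Alternatives were other pseudocounts, no filter, other scalings, a replicate block, array weights, no trend and fits without libraries.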

Additional observations from a re-analysis of the deposited data

How the results depend on the processing

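Over all rows 3 passed as reported. The number was 1 with a pseudocount of 0.1, median-ratio scaling, the replicate block or no trend, 26 with array weights, 1 to 3 without 1 library and 0 when pectoral replicate 1 and tail replicate 4 were both left out. Of the 7 tubulin rows 0 passed as reported, 1 with quantile scaling (alpha 8 like 2, log2 fold change 2.85, limma adjusted p = 0.047) and 2 with array weights (alpha 2, 2.36, adjusted p = 0.029, and alpha 8 like 2, 2.56, adjusted p = 0.025). The highest array weights were 2.28, of tail replicate 2, and 2.24, of pectoral replicate 1, so that fit leaned mostly on 1 library of each group. The other weights lay between 0.41, of tail replicate 4, and 0.91, of pectoral replicate 2. Over all 15 alternatives the adjusted p of both rows reached 0.70. Alpha 7 like was at 0.27 with the replicate block, 0.13 with array weights and 0.43 when both pectoral replicate 1 and tail replicate 4 were left out, against -0.61 as reported. In fits without 1 library it ranged from -1.28 to 0.37, with the positive value in the fit without tail replicate 4. The median of the tubulin rows lay between 0.61 and 1.499 in the alternatives. In settings that left out no library, the folding list's median lay between -0.27 and 0.71, and that of motors between -0.61 and 1.78. That of neuronal outgrowth lay between -1.32 and 0.27 and of microtubule-associated proteins between 0.0063 and 1.15, with 0 rows called. Each of these low ends came from the replicate block, whose contrast rests on replicates 1 and 2 only. The cause of these shifts was not tested.

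Replicate numbers 1 and 2 occur in both groups, and deviations of same-numbered libraries correlated with r of -0.03 and -0.003, so the numbers are not taken as pairs. With the replicate block alpha 2 was at 1.53 and alpha 8 like 2 at 2.09, with 0 tubulin rows past the threshold. In that fit libraries whose number occurs in only 1 group drop out of the contrast, which rests on replicates 1 and 2. The rule kept every matching row, so counting all matching rows gave the same sums. Leaving out single libraries from the ratios was chosen after seeing the data, and the difference for alpha 2 over alpha 1a ranged from 1.01 to 3.05. Unknown depth limits all values of a few TPM.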
